A study of Mus musculus with 24 samples.

Results

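The sestrin, folliculin and mTORC1 brake genes are 10 mouse genes chosen by name from the 23235 rows of an expression table: Sesn1, Sesn2, Sesn3, Ddit4, Flcn, Fnip1, Fnip2, Tsc1, Tsc2 and Deptor. All 10 were found, and all 10 averaged 1 FPKM or more across the 8 columns, as did 10262 genes in all. FPKM is the number of sequenced fragments scaled by transcript length and by library size, so levels can be set side by side between genes. The gene set was proposed with the fusion's ratios to PBS already known, so every value below is a description and none is a test.

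The cells were T11, a claudin-low line derived from a mouse mammary tumour, which here carried a luciferase gene in every group. They received PBS or a peptide at 5 µM, which was Omomyc, FPP-1746 or FPP-1746-Omomyc, for 3 h or for 6 h. Each of the 8 groups held 3 biological replicates, 24 samples in all, and the deposited table gives 1 averaged column per group. Omomyc is a mutant of the MYC dimerisation domain that takes the place of MYC in binding MAX, the peptide FPP-1746 carries cargo into cells, and FPP-1746-Omomyc joins them (the fusion below). A treatment tag of the 3 samples titled as the fusion at 6 h says 3 h. The titles and the column name say 6 h and were followed, so that conflict touches every value of the fusion at 6 h. No spread between replicates can be seen in averaged columns, so no difference below has a replicate check, no SD or p-value is given, and whether neighbouring levels differ beyond replicate spread cannot be told.

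The kinase complex mTORC1 drives protein synthesis and growth when amino acids, energy and growth factors are at hand, and it is switched on at the lysosome by the Rag GTPases and by RHEB. The 10 genes encode proteins that act on this switch at different points. Sestrins restrain mTORC1 through the GATOR complexes that control the Rag GTPases, and SESN2 binds leucine. DDIT4 (REDD1) acts through the TSC complex, in which TSC2 is the GTPase-activating subunit for RHEB and TSC1 its stabilising partner. Folliculin, with FNIP1 or FNIP2, is a GTPase-activating protein for RagC and RagD. It thereby favours mTORC1 action on the transcription factors TFEB and TFE3, so folliculin is a brake on those factors more than on mTORC1 itself. DEPTOR binds mTOR directly and inhibits it.

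All 8 mesenchymal markers checked were above 1 FPKM, with Vim between 3302 and 5128 FPKM, and none of 10 epithelial, 6 leukocyte, 4 endothelial or 4 adipocyte markers in the table reached 1 FPKM in any column. The columns summed to 445657 FPKM at the least and to 594951 FPKM at the most, the latter in the fusion at 3 h. Rn45s, the row for precursor ribosomal RNA, was at 83.97 to 181 FPKM in the columns without the fusion and at 233 and 1000 FPKM in the fusion at 3 h and 6 h. Its part in the results was not tested. The median log2 ratio of all tested genes was 0.0034 for the fusion against PBS at 3 h and -0.026 at 6 h. Because the samples are bulk RNA, a change in a share of the cells and a change in RNA per cell cannot be told apart.

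With the fusion at 3 h, 6 of the 10 genes were at least 2-fold higher than in PBS, namely all 3 sestrin genes, Ddit4, Flcn and Fnip1, and none was lower. At 6 h, 4 were still past 2-fold: Sesn2, Ddit4, Fnip1 and Flcn. Neither Omomyc nor FPP-1746 alone moved any of the 10 past 2-fold at either time. Few genes at large passed with a part alone, from 0.224% to 0.370% of all tested genes in each direction. The rule for a call was a ratio of at least 2-fold in FPKM + 1, that is a log2 ratio of 1 or more in size. On this scale changes of weakly expressed genes come out too small. Of all 10262 tested genes, 6.13% were past 2-fold higher and 4.42% lower for the fusion at 3 h, and 7.13% and 3.34% at 6 h. Over the 10 genes the median log2 ratio was 1.54 at 3 h and 0.74 at 6 h. Nothing is read from the excess over the background, since that contrast was in view when the genes were proposed.

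**Figure D1:**
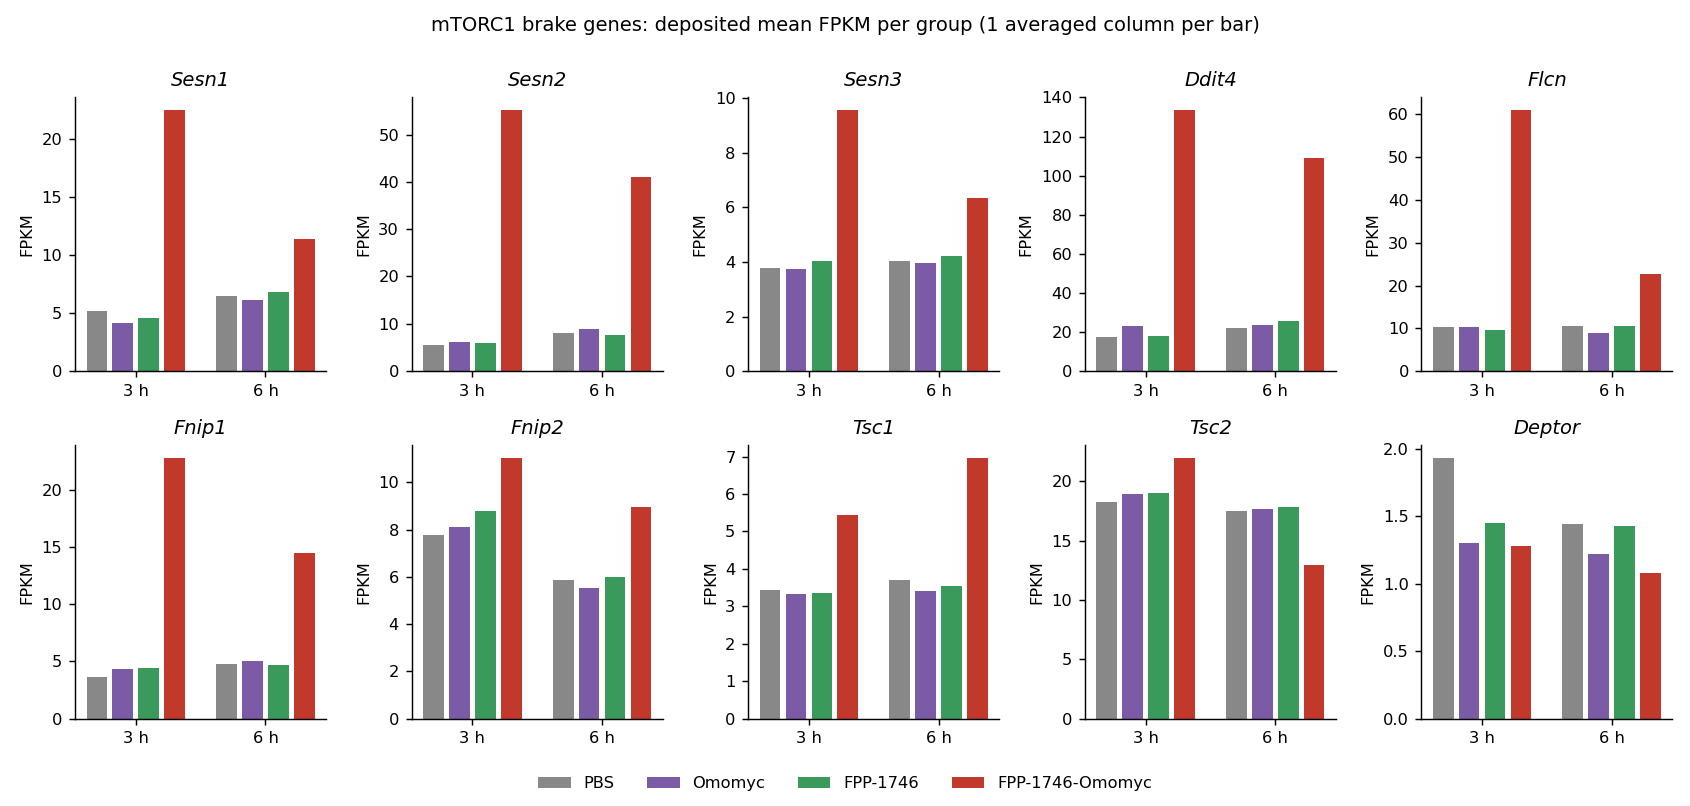
Deposited mean FPKM of the 10 genes (y axis, a separate linear scale from 0 for each gene) in the 8 groups (x axis, 3 h and 6 h; colours are treatments). Each bar is 1 averaged column, so no error bars can be drawn. The fusion bar is the tallest at both times for 8 genes, is the tallest at 3 h and the shortest at 6 h for Tsc2, and is the shortest at both times for Deptor.

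Sesn2, the leucine-binding sestrin, had the highest ratio of the 10 at 3 h. Its FPKM at 3 h was 5.52 (PBS), 6.26 (Omomyc), 5.85 (FPP-1746) and 55.2 (fusion). The 6 h columns, in the same order of treatments, held 8.02, 8.98, 7.69 and 40.98 FPKM. The fusion column thus lay 8.81 times above the highest of the other columns at 3 h and 4.57 times at 6 h, while the other 3 columns spanned 0.16 and 0.20 on the log2 scale. The log2 ratio of the fusion to PBS was 3.11 at 3 h, which placed Sesn2 as gene 58 from the top of 10262, and 2.22 at 6 h. In PBS itself Sesn2 was higher at 6 h than at 3 h by 0.47 on the log2 scale, so the smaller ratio at 6 h held both a lower fusion level and a higher reference. From the step between low FPKM values, which gives the worth of 1 fragment only roughly, and its single annotated transcript of 3475 bases, about 788 fragments stood behind the PBS value at 3 h and about 6539 behind that of the fusion. The table places Sesn2 at chr4:132048722-132066371 in the mouse build mm9.

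Sesn1, a sestrin known as a p53 and FOXO target, was also past 2-fold at 3 h but not at 6 h. At 3 h its FPKM was 5.16 (PBS), 4.17 (Omomyc), 4.60 (FPP-1746) and 22.5 (fusion). In that order the 6 h columns held 6.48, 6.14, 6.84 and 11.4 FPKM. The fusion was the highest column at both times, with log2 ratios to PBS of 1.93 and 0.73. Within the fusion columns Sesn1 was lower at 6 h than at 3 h, with a log2 ratio of -0.92. Omomyc at 3 h gave the lowest Sesn1 value of all 8 columns, with a log2 ratio to PBS of -0.25, far short of 2-fold.

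Sesn3, the third sestrin gene and a known FOXO target, lay just inside the rule at 3 h. Its FPKM at 3 h was 3.77 (PBS), 3.73 (Omomyc), 4.05 (FPP-1746) and 9.57 (fusion), a log2 ratio of fusion to PBS of 1.15. The values at 6 h were 4.05, 3.95, 4.22 and 6.33 FPKM, with a log2 ratio of 0.54. The call at 3 h was lost with a pseudocount of 5 FPKM, at 0.73.

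The make-up of the sestrin family shifted toward Sesn2. Summed over the 3 sestrin genes, the level at 3 h was 14.4 FPKM for PBS against 87.2 FPKM for the fusion, and at 6 h it was 18.5 against 58.7 FPKM. Of that sum Sesn2 held 38.2% (PBS), 44.2% (Omomyc), 40.3% (FPP-1746) and 63.2% (fusion) at 3 h. The shares at 6 h were 43.2%, 47.1%, 41.0% and 69.8%. The share of Sesn3 went the other way although its own level was higher with the fusion, from 26.1% to 10.97% at 3 h and from 21.8% to 10.8% at 6 h.

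Ddit4, whose product REDD1 acts through the TSC complex and is induced by hypoxia, glucocorticoids and stress, was the most abundant of the 10 with the fusion. At 3 h its FPKM was 17.2 (PBS), 23.1 (Omomyc), 18.1 (FPP-1746) and 133 (fusion). The values at 6 h were 21.9, 23.4, 25.6 and 109 FPKM. The fusion lay 5.77 and 4.25 times above the highest other column. The log2 ratio to PBS was 2.88 at 3 h and 2.26 at 6 h, the latter the highest of the 10 genes at that time. Omomyc alone at 3 h was 0.40 above PBS on the log2 scale, the largest ratio of any of the 10 genes with either part alone, and it was 0.09 at 6 h. Its paralog Ddit4l was listed at 0 in every column. Ddit4 lies at chr10:59412423-59414518 in mm9.

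Among the 10 genes, Sesn2 and Ddit4 had the most similar profiles. The measure was the root mean square difference of log2(FPKM + 1), each gene centred on its own mean over the 8 columns, and for this pair it was 0.15. The columns share their PBS references and the fusion drives most of the likeness, so this describes the columns only. The 250 bases before the RefSeq start of each of these genes are shown because they had the highest ratios of the set. The sequences are from RefSeq's GRCm38.p6 tables, written 5′ to 3′ on the gene's strand, with any match to the 4 motifs named below in capitals. Sesn2 is on the minus strand at chr4:132510457-132510706 and Ddit4 on the minus strand at chr10:59951771-59952020.
Sesn2: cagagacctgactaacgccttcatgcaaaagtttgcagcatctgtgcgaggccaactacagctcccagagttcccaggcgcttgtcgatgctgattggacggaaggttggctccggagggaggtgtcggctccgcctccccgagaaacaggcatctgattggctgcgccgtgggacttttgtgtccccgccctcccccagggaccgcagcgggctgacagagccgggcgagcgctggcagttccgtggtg
Ddit4: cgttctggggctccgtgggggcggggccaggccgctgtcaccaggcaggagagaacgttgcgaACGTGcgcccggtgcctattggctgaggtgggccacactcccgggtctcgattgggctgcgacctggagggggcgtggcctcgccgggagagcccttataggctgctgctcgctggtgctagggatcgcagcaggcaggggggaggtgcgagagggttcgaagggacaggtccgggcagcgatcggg

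The motifs were searched on both strands of these 250-base windows. They were TGATGNAA, the core of the amino acid response element bound by ATF4 with C/EBP proteins, TGACGTCA, a cyclic AMP response element, CACGTG, the E-box bound by MYC with MAX and by TFE proteins, and ACGTG, the hypoxia response core, which overlaps the E-box. Windows were given for 9 of the 10 genes, Sesn1 with 2, which makes 10 windows. Of all 32851 windows in the table, TGATGNAA was in 3.45%, TGACGTCA in 1.55%, CACGTG in 6.02% and ACGTG in 16.6%. None of the 10 windows held TGATGNAA, 1 held TGACGTCA, 1 held CACGTG and 2 held ACGTG. The Ddit4 window held 1 ACGTG, from 187 to 183 bases before the start, and the Sesn2 window held no match. A match is letters in a window, and sites farther away were not searched.

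Flcn, which encodes folliculin, was past 2-fold at both times and dropped the most of the 10 between them. Its FPKM at 3 h was 10.3 (PBS), 10.3 (Omomyc), 9.60 (FPP-1746) and 60.98 (fusion). By 6 h the columns held 10.5, 9.01, 10.5 and 22.6 FPKM. PBS was nearly level between the times, with a log2 ratio of 0.04, so the drop in the ratio to PBS from 2.46 to 1.03 came from the fusion column. Flcn was the 1 member past 2-fold between the fusion at 6 h and at 3 h, with a log2 ratio of -1.39, where 4.92% of all tested genes were past 2-fold lower and 7.27% higher. The value at 6 h is just inside the rule, with Tsc1 the nearest outside it at 0.76, and with a pseudocount of 5 FPKM Flcn no longer passed, at 0.83. Flcn lies at chr11:59605253-59623275 in mm9.

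Fnip1, the gene of a folliculin partner that AMPK phosphorylates, was past 2-fold at both times like Flcn, whereas its paralog Fnip2 did not pass. The FPKM of Fnip1 at 3 h was 3.66 (PBS), 4.31 (Omomyc), 4.45 (FPP-1746) and 22.8 (fusion). Its values at 6 h were 4.75, 5.07, 4.72 and 14.5 FPKM, the fusion being far above the rest each time. The log2 ratios of the fusion to PBS were 2.35 and 1.43, and the latter went to 0.997 with a pseudocount of 5 FPKM, just short of the rule.

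The FPKM of Fnip2 at 3 h was 7.79 (PBS), 8.11 (Omomyc), 8.79 (FPP-1746) and 11.05 (fusion). Its values at 6 h were 5.86, 5.52, 6.00 and 8.95 FPKM. The fusion was the highest column at each time, with log2 ratios of 0.45 and 0.54. In PBS it was lower at 6 h than at 3 h, with a log2 ratio of -0.36. The table gives Fnip2 a locus shared with Gm17359, which was listed at 0 in every column.

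In PBS at 3 h Fnip1 was the lesser of the FNIP genes, with 31.9% of their summed FPKM, and with the fusion it was the larger, with 67.4%. At 6 h its share was 44.8% in PBS and 61.8% with the fusion. The level of Flcn relative to the sum of Fnip1 and Fnip2 was 0.90 in PBS and 1.80 with the fusion at 3 h. By 6 h it was 0.99 in PBS and 0.97 with the fusion.

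The windows before Flcn and Fnip1 are shown because these genes of 1 complex were both past 2-fold at both times and each held a motif match. The Flcn window, on the minus strand at chr11:59810040-59810289, held TGACGTCA from 49 to 42 bases before the start. The Fnip1 window, on the plus strand at chr11:54437929-54438178, held the E-box CACGTG from 75 to 70 bases before the start. Both are in GRCm38.p6, a later build than the mm9 of the expression table.
Flcn: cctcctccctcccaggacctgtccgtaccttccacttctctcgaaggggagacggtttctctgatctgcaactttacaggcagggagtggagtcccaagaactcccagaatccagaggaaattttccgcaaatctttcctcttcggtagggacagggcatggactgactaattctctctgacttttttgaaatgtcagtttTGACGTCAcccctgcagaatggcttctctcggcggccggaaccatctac
Fnip1: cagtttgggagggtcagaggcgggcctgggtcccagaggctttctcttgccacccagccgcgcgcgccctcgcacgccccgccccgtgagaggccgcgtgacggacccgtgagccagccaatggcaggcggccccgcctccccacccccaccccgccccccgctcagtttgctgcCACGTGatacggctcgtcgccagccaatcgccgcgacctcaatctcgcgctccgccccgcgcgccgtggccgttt
In the Flcn window 52.0% of the bases were G or C, against 73.6% in that of Fnip1 and a median of 52.4% over all windows.

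**Figure D2:**
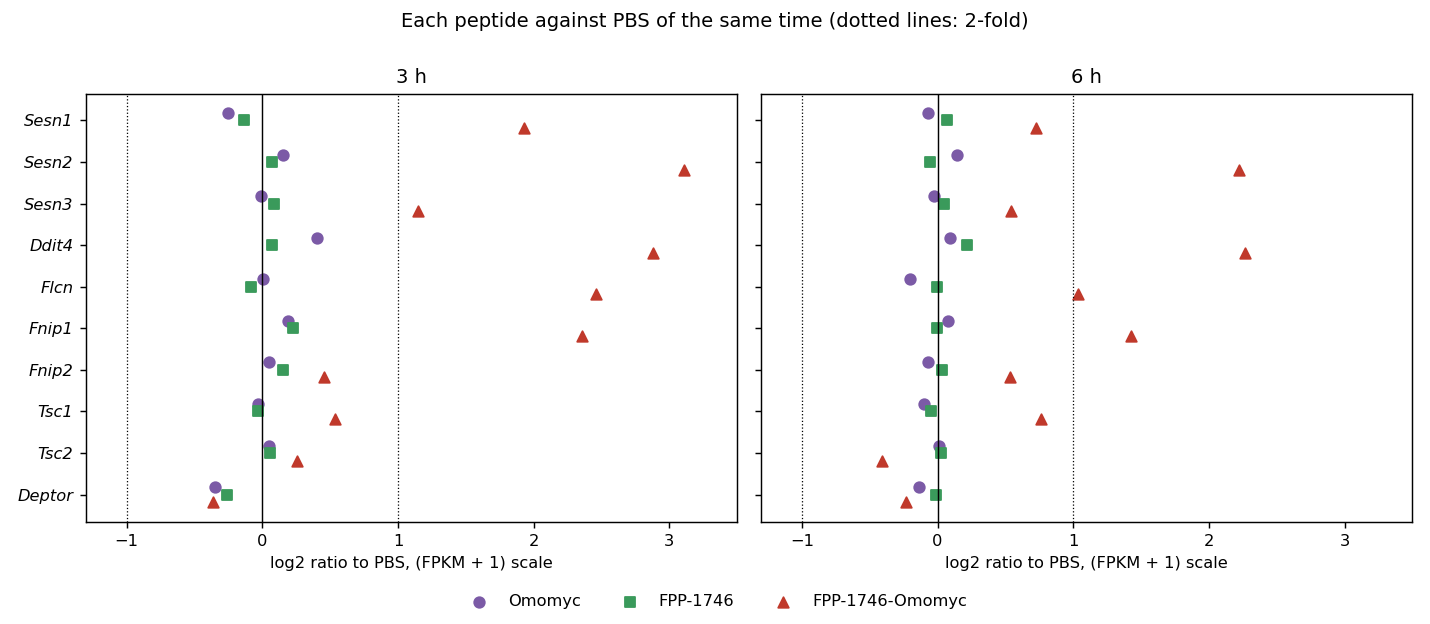
Log2 ratio to PBS of the same time, on the FPKM + 1 scale (x axis), for each gene (y axis) with Omomyc (purple circles), FPP-1746 (green squares) and the fusion (red triangles), 3 h left and 6 h right; dotted lines mark 2-fold. Points of the parts alone lie between -0.35 and 0.40, while those of the fusion reach 3.11 at 3 h and 2.26 at 6 h.

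The TSC genes Tsc1 and Tsc2 stayed short of 2-fold at both times and went apart at 6 h. For Tsc1, the stabilising subunit, FPKM at 3 h was 3.45 (PBS), 3.34 (Omomyc), 3.36 (FPP-1746) and 5.44 (fusion). The 6 h values were 3.71, 3.40, 3.54 and 6.97 FPKM. The fusion was the highest column each time, with log2 ratios to PBS of 0.53 and 0.76. Tsc1 was the 1 gene of the 10 that was higher in the fusion at 6 h than at 3 h, by 0.31 on the log2 scale.

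For Tsc2, the GTPase-activating subunit, FPKM at 3 h was 18.2 (PBS), 18.9 (Omomyc), 19.0 (FPP-1746) and 21.98 (fusion). The 6 h values were 17.5, 17.7, 17.8 and 12.9 FPKM. The fusion was thus above the other 3 columns at 3 h and below them at 6 h, with log2 ratios to PBS of 0.26 and -0.41. The other columns lay close together, spanning 0.06 and 0.02 on the log2 scale. The ratio of Tsc2 to Tsc1 FPKM was 5.28 in PBS and 4.04 with the fusion at 3 h, and 4.73 and 1.85 at 6 h. The table gives Tsc2 a locus shared with Pkd1, chr17:24686895-24769574 in mm9, so reads of the neighbours may be mixed. The FPKM of Pkd1 was 5.59 (PBS) and 6.74 (fusion) at 3 h, and 5.98 and 7.04 at 6 h.

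Deptor was the least abundant of the 10. Its FPKM at 3 h was 1.93 (PBS), 1.30 (Omomyc), 1.45 (FPP-1746) and 1.28 (fusion). Those at 6 h were 1.44, 1.22, 1.43 and 1.08 FPKM. The fusion was the lowest column at both times, but at 3 h it differed from Omomyc alone by only -0.02 on the log2 scale, and PBS at 3 h was the column that stood apart. The log2 ratios of the fusion to PBS were -0.37 and -0.23, neither near the rule. The table gives Deptor a locus shared with Gm9920, which did not exceed 0.32 FPKM.

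The fusion lay above all 3 other columns of the same time in 9 of the 10 genes at 3 h and in 8 at 6 h. Over all tested genes it lay above them in 46.0% at 3 h and 44.0% at 6 h, and below them in 45.9% and 47.3%. Lying outside the range of 3 averaged columns was therefore common, and the size of the difference carries more than the order.

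Setting the fusion against either of its parts gave the same counts as setting it against PBS. Against FPP-1746 alone, 6 genes were past 2-fold higher at 3 h and 4 at 6 h, where 5.86% and 6.94% of all tested genes were. Against Omomyc alone the counts were again 6 and 4, with backgrounds of 5.56% and 6.59%. All these comparisons share the fusion column of their time, so they do not count as separate evidence. Sesn2, for example, had log2 ratios at 3 h of 3.11 to PBS, 3.04 to FPP-1746 and 2.95 to Omomyc.

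For the parts alone the background was small as well. Omomyc against PBS was past 2-fold higher in 0.283% and lower in 0.331% of tested genes at 3 h, and in 0.312% and 0.370% at 6 h. FPP-1746 against PBS was past 2-fold higher in 0.322% and lower in 0.292% at 3 h, and in 0.224% and 0.331% at 6 h. Most of these calls were records of small RNAs. Without 140 such records, a repeat chosen after seeing the data, Omomyc had 0% of genes higher and 0.00988% lower at 3 h. At 6 h it had 0.0395% and 0.0198%. FPP-1746 then had 0.0198% and 0.00988% at 3 h, and 0.0198% and 0.0296% at 6 h. The 10 genes had median log2 ratios of 0.028 with Omomyc and 0.065 with FPP-1746 at 3 h, and of -0.048 and 0.0089 at 6 h. PBS at 6 h against PBS at 3 h moved none of the 10 past 2-fold, where 0.380% of tested genes were higher and 0.487% lower, and its largest member value was that of Sesn2.

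The order of levels within the set differed between PBS and the fusion. In PBS at 3 h Tsc2 was the highest at 18.2 FPKM, followed by Ddit4 at 17.2, Flcn at 10.3 and Fnip2 at 7.79 FPKM. With the fusion at 3 h Ddit4 led at 133 FPKM, followed by Flcn at 60.98, Sesn2 at 55.2 and Fnip1 at 22.8 FPKM. In PBS at 6 h the order was Ddit4 at 21.9, Tsc2 at 17.5, Flcn at 10.5 and Sesn2 at 8.02 FPKM. With the fusion at 6 h the order was Ddit4 at 109, Sesn2 at 40.98, Flcn at 22.6 and Fnip1 at 14.5 FPKM. Ddit4 also led with Omomyc at both times and with FPP-1746 at 6 h, so its first place was not particular to the fusion. Deptor was last in all 8 columns.

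Between 3 h and 6 h the genes that responded most at 3 h did not decline alike. From 3 h to 6 h the log2 ratio to PBS dropped by 1.43 for Flcn and by 1.20 for Sesn1, but by 0.62 for Ddit4 and by 0.61 for Sesn3. Sesn2 and Fnip1 lay between, at 0.89 and 0.93. These drops include a change in PBS, which was higher at 6 h than at 3 h on the log2 scale. That rise was 0.04 for Flcn, 0.28 for Sesn1, 0.33 for Ddit4, 0.08 for Sesn3, 0.47 for Sesn2 and 0.31 for Fnip1. Tsc2, not called at 3 h, dropped by 0.67. Tsc1 and Fnip2 had slightly larger ratios at 6 h, by 0.23 and 0.083. Differences between the times were not tested.

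**Figure D3:**
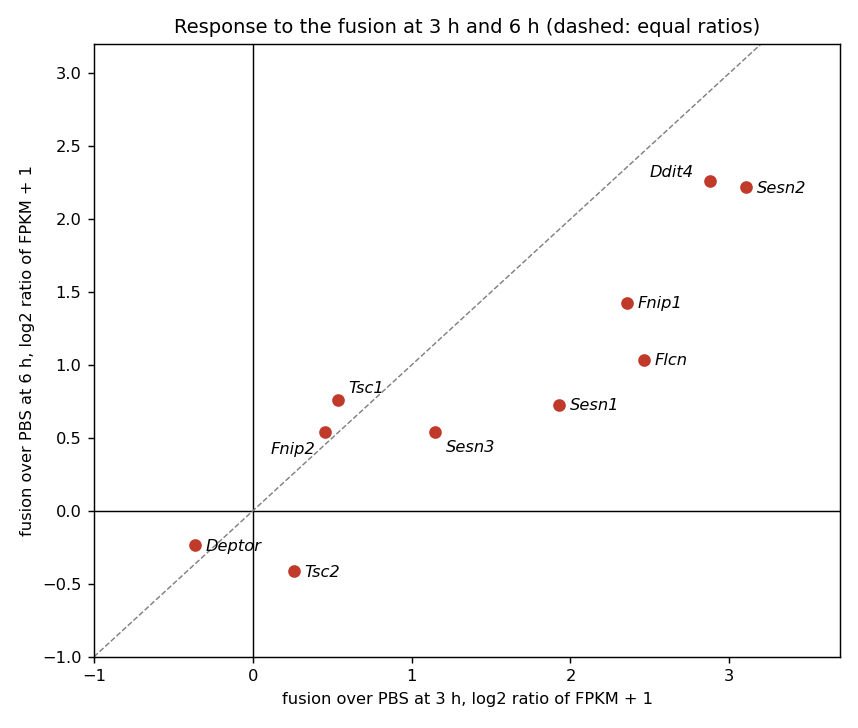
Log2 ratio of the fusion to PBS on the FPKM + 1 scale at 3 h (x axis) and at 6 h (y axis), 1 point per gene; the dashed line marks equal ratios. Sesn2 and Ddit4 lie highest, Flcn (2.46 and 1.03) and Sesn1 (1.93 and 0.73) lie well under the dashed line, and Tsc2 is the only point of the 10 with opposite signs.

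In 7 lists of other mTORC1 pathway genes, namely sensors, complexes, substrates and upstream kinases, calls were about as common as among genes at large. Of 79 genes 70 were tested, and the calls given for the lists are against PBS. At 3 h 5 were past 2-fold higher and 5 lower, which is 7.14% in each direction against backgrounds of 6.13% and 4.42%. At 6 h 4 were higher and 3 lower, 5.71% and 4.29%, against 7.13% and 3.34%. The median log2 ratio was -0.039 at 3 h and 0.030 at 6 h. With either part alone no gene of these lists passed, where 0.224% to 0.370% of all tested genes did in each direction. With the pair of lists described further below included, 16 of 91 tested genes were past 2-fold higher at each time, 17.6%. Then 5 were lower at 3 h and 4 at 6 h, 5.49% and 4.40%.

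In the GATOR1 and KICSTOR list, the complex that inactivates RagA and RagB and its lysosomal anchor, 1 of 6 tested genes was higher at each time and none lower. Nprl2, a GATOR1 subunit, went from 3.32 FPKM (PBS) to 7.88 (fusion) at 3 h, a log2 ratio of 1.04. Against FPP-1746 and Omomyc it was at 0.91 and 0.86, short of the rule. The KICSTOR gene Kics2, listed under its older name BC048403, had log2 ratios of -0.76 at 3 h and 1.10 at 6 h. Of 5 GATOR2 genes, whose complex the sestrins bind, Mios was lower at 3 h, from 14.2 FPKM (PBS) to 4.73 (fusion), a log2 ratio of -1.41, and was at 0.09 at 6 h. The abundant GATOR2 genes Sec13 and Seh1l were at 0.14 and -0.38 at 3 h.

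Of 10 tested genes of the Rag GTPases, the Ragulator and the amino acid sensors, 1 was higher at 3 h and 1 lower at 6 h. Rragc, which encodes the RagC that folliculin acts on, went from 47.7 FPKM (PBS) to 98.4 (fusion) at 3 h, a log2 ratio of 1.03, and was at 0.81 at 6 h. Rragb, the gene of RagB, had a log2 ratio of -1.10 at 6 h. Against Omomyc these calls fell short, with Rragc at 0.95 at 3 h and Rragb at -0.97 at 6 h. Lamtor2 and Rraga, the most abundant of the list, were at 0.70 and -0.37 at 3 h.

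The genes of the mTOR complexes, with RHEB and factors listed beside them, mostly stayed within 2-fold. Of 12 tested, Tti1, a factor for mTOR assembly, was lower at 3 h (-1.36). At 6 h the mTORC2 genes Mapkap1 (-1.02) and Prr5 (-1.21) were lower and Rhebl1, a RHEB paralog, was higher (1.25). Mapkap1 was at -0.92 against FPP-1746 and -0.96 against Omomyc, short of the rule. Mtor itself was at 6.26 FPKM (PBS) and 6.19 (fusion) at 3 h, and at 7.41 and 5.06 FPKM at 6 h. Rheb and Akt1s1, the latter an inhibitor within mTORC1, were the most abundant and had ratios of 0.28 and 0.38 at 3 h.

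Among 12 tested substrates and outputs of mTORC1, 2 were higher and 1 lower at 3 h, and 1 was higher at 6 h. Lpin1, a phosphatidate phosphatase gene, went from 1.63 FPKM (PBS) to 13.4 (fusion) at 3 h, a log2 ratio of 2.46, and at 0.98 at 6 h. Pdcd4, an inhibitor of translation initiation, had ratios of 2.098 and 1.36. Eif4ebp2, a translation repressor gene, was lower at 3 h (-1.16). The TFE-family gene Tfe3, whose product folliculin keeps out of the nucleus, was at 0.75 and 0.97, short of the rule, and Eif4ebp1, the most abundant of the list, was at 0.26 and 0.75.

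Upstream, 1 of 15 tested insulin and PI3K genes was higher at each time, Irs2 at 3 h (1.22) and Pik3r1 at 6 h (1.32), and none was lower. Against FPP-1746 at 3 h Irs2 was at 0.97, short of the rule. Akt1, the most abundant of them, was at -0.23 and -0.81, and Pik3r2 at -0.61 and -0.59. Of 10 genes of AMPK, the energy-sensing kinase, and its activators, the subunit genes Prkab2 (-1.16) and Prkag2 (-1.04) were lower at 3 h and none passed at 6 h. Prkag1 and Stk11 were the most abundant, at 0.01 and -0.06 at 3 h.

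**Figure D4:**
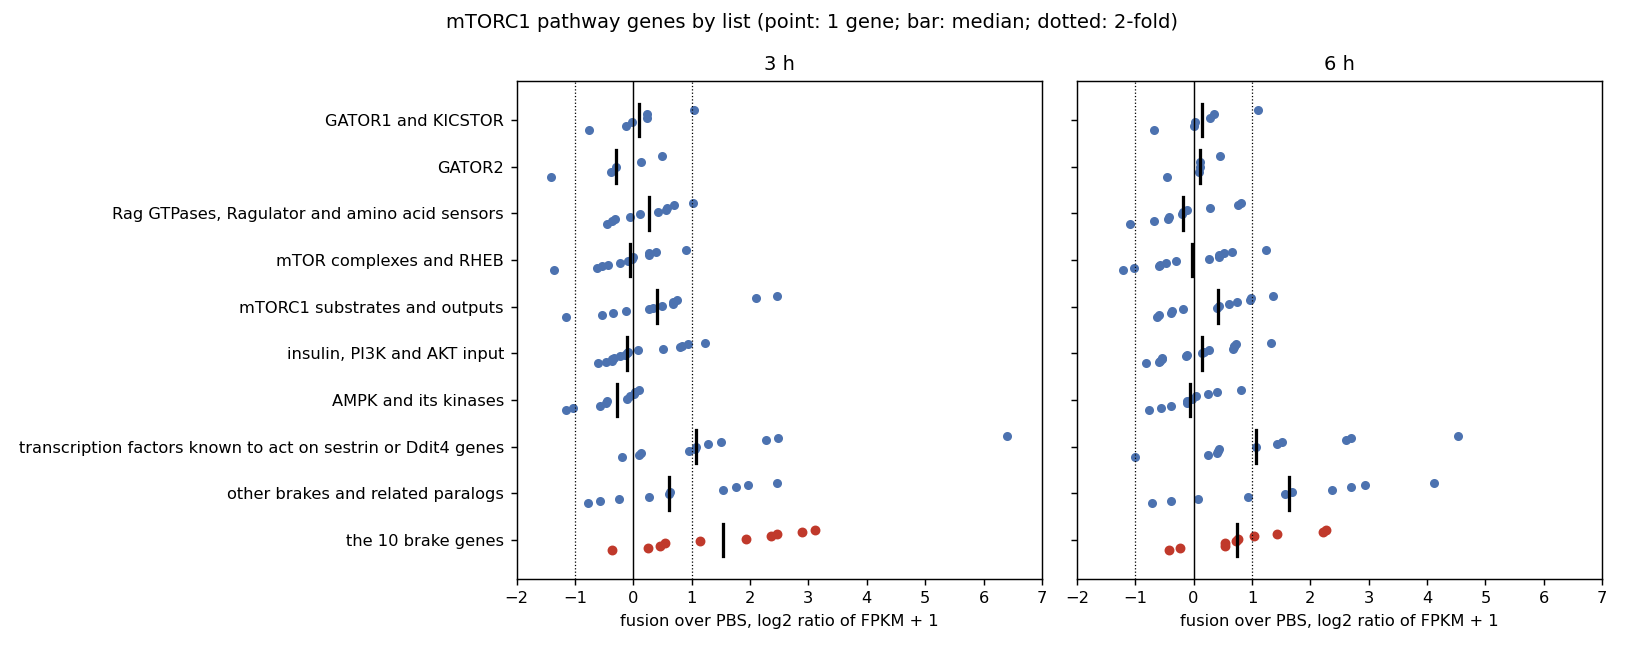
Log2 ratio of the fusion to PBS on the FPKM + 1 scale (x axis) for the tested genes of 9 pathway lists (blue, 1 point per gene) and the 10 brake genes (red), at 3 h left and 6 h right; black bars are medians and dotted lines mark 2-fold. The 7 upper lists have medians from -0.30 to 0.41 at 3 h and from -0.18 to 0.42 at 6 h, and the 10 brake genes have medians of 1.54 and 0.74. The other lists have medians of 1.07 (transcription factors) and 0.62 (other brakes) at 3 h, and of 1.07 and 1.63 at 6 h.

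A pair of further lists held more calls. They were drawn up with the stress response to the fusion already known, so their counts are no independent sign of anything. Of 11 tested transcription factor genes known to act on sestrin genes or Ddit4, 7 were higher at 3 h and 6 at 6 h, and 1 was lower at 6 h. Of all tested genes 6.13% were past 2-fold higher and 4.42% lower at 3 h, and 7.13% and 3.34% at 6 h. Atf4, the main factor of the amino acid response, went from 280 FPKM (PBS) to 676 (fusion) at 3 h, a log2 ratio of 1.27, and at 1.52 at 6 h. The others past the rule at 3 h were Atf3 (6.41), Cebpb (2.47), Ddit3 (2.27), Foxo3 (1.498), Nfe2l2 (1.07) and Foxo1 (1.05). Trp53, the gene of p53, was at -0.20 at 3 h and -1.01 at 6 h. Against FPP-1746 and Omomyc at 6 h it was at -0.84 and -0.89, short of the rule. Hif1a was at 0.10 and 0.44, and the glucocorticoid receptor gene Nr3c1 at 0.12 and 0.41.

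Of 10 tested genes of other brakes and related proteins, 4 were higher than in PBS at 3 h and 6 at 6 h, and none was lower. Of all tested genes 6.13% were higher and 4.42% lower at 3 h, and 7.13% and 3.34% at 6 h. Sqstm1, an autophagy receptor gene, went from 310 FPKM (PBS) to 1702 (fusion) at 3 h, and Nupr1, a stress-induced gene, from 87.8 to 298 FPKM. The pseudokinase gene Trib3, an inhibitor of AKT, had log2 ratios of 1.96 at 3 h and 4.11 at 6 h, and the glucocorticoid-induced Tsc22d3 had 1.54 and 2.93. In contrast to Sesn2 and Ddit4, both had larger ratios at 6 h than at 3 h. Sh3bp4 and Tmem127, the most abundant of the list not past 2-fold against PBS, were at -0.77 and -0.24 at 3 h. At 6 h they were at -0.38 and 0.08. Against FPP-1746 at 3 h Sh3bp4 was at -1.05, past 2-fold lower. Of the list 7 genes were above PBS and 3 below at 3 h, and 8 and 2 at 6 h.

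For each member past 2-fold, the 3 genes with the most similar profile were taken from 9333 named genes, by the same root mean square difference over 8 columns. Sesn2 was nearest to Rsbn1 (0.17), Hbp1 (0.18) and Fam13c (0.21), and Ddit4 to Hbp1 (0.16), Fam13c (0.19) and Il11 (0.21). At 3 h Fam13c was at 0.27 FPKM in PBS and 6.45 with the fusion, and Il11 at 0.27 and 6.93 FPKM. At such low levels the added 1 FPKM shrinks the ratio, so their likeness holds on this scale only. Flcn was nearest to the Wnt receptor gene Fzd5 (0.12), Zswim6 (0.14) and Pdcd4 (0.15). Fzd5 was also low, at 0.98 FPKM in PBS at 3 h. Fnip1 was nearest to Gprc5a (0.11), the osmotic stress factor gene Nfat5 (0.12) and the plasminogen activator gene Plat (0.13). Sesn1 was nearest to Cnksr3 (0.15), the transcription factor gene Twist1 (0.16) and Eif2ak3 (0.16), the gene of the kinase PERK. Sesn3, with its smaller range, was nearest to Rab40c (0.040), Dusp14 (0.044) and Ing2 (0.047). The table gives Rsbn1, Hbp1, Fam13c, Rab40c and Pdcd4 loci shared with other genes.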

How the data were processed

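The authors deposited 1 table of FPKM values, 8 columns that are group averages over 3 replicates each, per the file headers and the labels. The reads were handled with Cuffnorm 2.2.1, Cufflinks 2.2.1, STAR 2.1.3 and bcl2fastq 2.17.1.14, with mm9 as the build, per the submitters' processing notes. What annotation, library scaling and strand setting were used is not given in the sources used here.

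From these, log2 ratios of FPKM + 1 were computed with Python 3.11.15 and pandas 2.3.3 over the 10262 genes averaging 1 FPKM or more, and 2-fold was the call rule. The table's starts were shifted by 1 base. Of 20652 rows matched by symbol, the span equalled the RefSeq length for 7165 with starts counted from 0 and for 456 counted from 1. Depth was read from low FPKM times transcript length in 1519 genes with 1 GENCODE transcript of at least 2000 bases. In these, 1 fragment was worth 22.9 to 29.3 FPKM times bases per column. Each column mixes 3 replicates, so this is rough.

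The 10 genes and the 9 pathway lists of 103 genes (102 in the table, 91 tested) were chosen with earlier results of these data known. The text names all 10 genes, list genes past 2-fold for the fusion, up to 2 abundant genes of a list, and 3 genes of like profile per called member, predicted genes and small RNA records left out. Mtor, Mlst8, Tfe3, Rictor, Wdr41, Ddit4l and the genes that share a locus with a member were named outside that rule, after their values were seen. The script for the 2-fold rule was tested on simulated data, of which no value is used. Alternatives were 2 other pseudocounts, no filter, 2 rescalings, a 1.5-fold rule and the mean of the PBS columns as reference.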

Additional observations from a re-analysis of the deposited data

Results flagged for a closer look

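Tsc2 lay above the other 3 columns with the fusion at 3 h and below them at 6 h. Its log2 ratio to PBS on the FPKM + 1 scale was 0.26 at 3 h and -0.41 at 6 h, a change of -0.67. It stands here because the directions at the times are opposite. No test of that change was made, and each value is 1 averaged column. The directions held under each alternative run, with 0.22 to 0.28 at 3 h and -0.54 to -0.33 at 6 h. Pkd1, which shares the locus of Tsc2 in the table, was at 0.23 and 0.20.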

How the results depend on the processing

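No paired analysis was possible because each group is 1 averaged column, and replicates could not be left out for the same reason. Of 74 recomputed counts of called members, 70 stayed within 1.5 times. Many of these could show little: runs without the filter could not change a count, since every member passes it. The counts for the parts alone and for PBS between the times were 0 and stayed at 0. With a pseudocount of 5 FPKM the fusion at 6 h had 2 members past 2-fold against PBS and 2 against Omomyc, in place of 4 each. Of all tested genes 3.56% and 3.39% were then past 2-fold higher, in place of 7.13% and 6.59%. With a 1.5-fold rule, 7 members were higher for the fusion against Omomyc at 6 h, where 17.3% of tested genes were. Under that rule 4 members were lower in the fusion at 6 h than at 3 h, where 20.2% of tested genes were lower and 17.8% higher. Settings that can change the log2 ratios of the fusion to PBS gave 100 recomputed values for single members. None reversed and 3 lost their call, all with a pseudocount of 5 FPKM: Sesn3 at 3 h (0.73), Flcn (0.83) and Fnip1 (0.997) at 6 h. The 1.5-fold rule added Sesn1 (0.73) and Tsc1 (0.76) at 6 h, where 17.4% of tested genes were past it higher and 15.2% lower. With the mean of the PBS columns as reference the same number of members passed at each time. Of tested genes 6.30% were then past 2-fold higher and 5.03% lower at 3 h, and 6.55% and 3.24% at 6 h. Without 140 records of small RNAs, a repeat chosen after seeing the data, 5.91% of genes were past 2-fold higher and 4.09% lower for the fusion at 3 h, and 6.95% and 2.97% at 6 h.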

Other observations

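Genes of 1 complex did not always move alike with the fusion. Smcr8 and the mouse C9orf72 gene, listed as 3110043O21Rik, whose products form a complex with WDR41 that acts at lysosomes, were past 2-fold higher at 6 h, with log2 ratios to PBS of 1.57 and 1.68. Smcr8 was at 6.96 FPKM in PBS and 22.7 with the fusion, and 3110043O21Rik at 3.81 and 14.4 FPKM. Wdr41 was at -0.70. In mTORC2 the ratios at 6 h were 0.66 for Rictor, -1.02 for Mapkap1 and -1.21 for Prr5. Each value rests on 1 averaged column per group.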
